A study of Mus musculus with 59 samples.

Results

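Cortical layer genes are genes whose RNA is enriched in excitatory neurons of particular layers of the cerebral cortex. The set described here has 9 members, taken by symbol from the deposited table: Cux1, Cux2 and Rasgrf2 for the upper layers, Rorb for layer 4, Etv1 and Fezf2 for layer 5, and Tle4, Syt6 and Nxph4 for layer 6. All 9 were present among the 20689 genes of the table. They were examined in 59 single mouse cells that form 1 group, chemical-induced neurons with an age label of 12 weeks, from a study of turning astrocytes into neurons with chemicals in the living brain. The labels give no strain, genotype, agent, brain region or animal for the cells, and the content of each was collected through a patch pipette in vivo. With no animal named, the 59 cells count as 1 sample, no control cells were analysed here, and no test between groups or p-value is given.

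In the developing cortex, excitatory projection neurons are born in sequence and settle in layers. Upper-layer neurons mostly connect cortical areas with each other, layer 4 receives thalamic input, layer 5 holds neurons that project below the cortex, and layer 6 holds neurons that project to the thalamus. Many of the genes that mark these layers encode transcription factors that fix the projection identity, and a cortical neuron of one layer is known for expressing its own layer's genes while the programmes of other layers are repressed. Cortical excitatory neurons also carry the vesicular glutamate transporter gene Slc17a7. Striatal projection neurons are GABAergic and carry Ppp1r1b, which encodes DARPP-32, a phosphatase inhibitor regulated by dopamine. Several layer genes are also used outside the cortex, so a symbol alone does not place a cell.

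Values are FPKM (fragments scaled to exon length and to the mapped fragments of the cell), and 1 FPKM was the level from which a gene counted as detected. The cells had a median of 3984 genes detected (475 to 10310) and an estimated median depth of 912996 fragments (29043 to 2950402). Neuronal and glial genes were found side by side: the median member was detected in 76.3% of cells for the pan-neuronal list, 74.6% for oligodendrocyte, 57.6% for microglia and 36.4% for astrocyte genes. An off-tissue control list of 6 measured genes of other organs had a median of 2.54% of cells, with Myh6, a heart myosin gene, the highest in 5 cells. The intervals given with shares are 95% Clopper-Pearson intervals and take in no error other than that of counting cells.

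At least 1 of the 9 genes was detected in 52 of 59 cells (88.1%, interval 77.1 to 95.1%). The median cell had 2 of them, with quartiles of 1 and 3.5 and a highest number of 6. The members were detected in a median of 25.4% of cells, against 11.9% for all 20689 genes. Only Etv1 reached at least 50% of the cells, a level that 11.7% of all genes reached. By number of cells the order was Etv1 (35), Cux1 (24), Tle4 (22), Rasgrf2 (19), Rorb (15), Syt6 (12), Cux2 (6), and Fezf2 and Nxph4 (4 each). The intervals of all neighbours in this order overlapped. The interval of Etv1 (45.7 to 71.9%) lay above those of Rasgrf2 (20.6 to 45.6%) and of the members detected in fewer cells. Fezf2 and Nxph4 (6.78% of cells each) were found in fewer cells than the heart gene Myh6, the highest of the off-tissue list (8.47%). The median of that list was 2.54%.

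**Figure D1:**
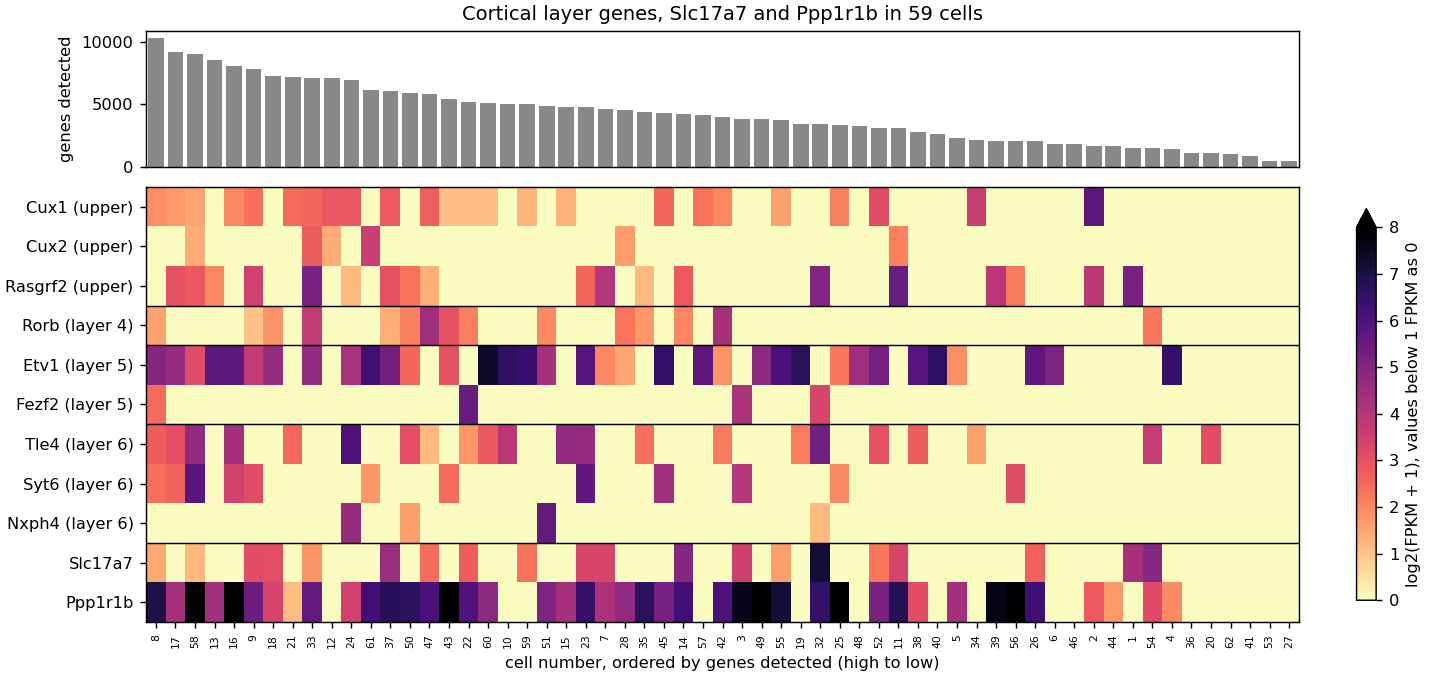
Levels of the 9 layer genes, Slc17a7 and Ppp1r1b (rows, as log2(FPKM + 1), with values below 1 FPKM drawn as 0) in each of the 59 cells (columns, ordered by the number of genes detected, shown as bars above). Etv1 fills 35 columns, Fezf2 and Nxph4 fill 4 each, and the cells with no layer gene lie at the right, where few genes were detected.

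The number of layer genes followed the number of genes detected. The 7 cells with none had 475 to 1855 genes, the 19 cells with 2 had a median of 4149 genes, and the 7 cells with 5 or more had 5921 to 10310. A cell without a layer gene is therefore not shown to lack it. Over the 59 cells, which share a protocol but differ in depth, the Spearman correlation (rho) of a member's FPKM with the number of genes detected was 0.517 for Cux1 and 0.139 for Fezf2, the highest and lowest. The median over the 8042 genes detected in at least 12 cells was 0.472.

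Upper-layer genes were broad but low in the case of Cux1 and narrow in the case of Cux2. Cux1 encodes a cut-like homeobox transcription factor of upper-layer neurons, and the same locus also encodes CASP, a Golgi protein that a value for the whole gene cannot separate. The gene lies on chromosome 5 (136248135 to 136567490, minus strand, GRCm38). Cux1 was at 0 in 26 cells, had a median of 0.105 FPKM over all cells, and reached 51.6 FPKM in cell 2, 10.9 FPKM in cell 34 and 7.39 FPKM in cell 52. Outside cell 2 its level was thus modest, and its detected cells had a median of 3.77 FPKM. A further 9 cells had Cux1 fragments but stayed below 1 FPKM. Its exons span 20024 bases, so that 1 FPKM needs more fragments than in a short gene.

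Cux2, the paralog that marks upper-layer neurons more narrowly, is on the same chromosome (121856366 to 122050102, minus strand). Its 6 detected cells were cell 61 at 11.0 FPKM, cell 33 at 5.66, cell 11 at 3.27, cell 28 at 2.13, cell 12 at 1.64 and cell 58 at 1.62 FPKM. The value of cell 28 rests on 2 recovered fragments, that of cell 61 on 140. Only 3 of the 6 cells also had Cux1, which is 50% of the Cux2 cells and 12.5% of the Cux1 cells.

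Rasgrf2 encodes a guanine nucleotide exchange factor for Ras proteins and marks upper-layer neurons (chromosome 13, 91880400 to 92131656, minus strand). It was at 0 in 33 cells and reached 43.1 FPKM in cell 11, 34.4 FPKM in cell 1, 33.2 FPKM in cell 33 and 30.8 FPKM in cell 32. Its 19 detected cells had a median of 6.85 FPKM, and 12 of them reached 5 FPKM, where 7 of the 24 Cux1 cells did. All 19 calls rested on at least 3 recovered fragments, with a median of 59.

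Rorb encodes an orphan nuclear receptor needed for the arrangement of layer 4 neurons in the sensory cortex, and astrocytes are also known to express it (chromosome 19, 18930605 to 19111196, minus strand). It was at 0 in 36 cells and highest in cell 47 (20.6 FPKM), cell 42 (18.1 FPKM) and cell 33 (12.4 FPKM). Beyond these the levels were low: the median over its 15 detected cells was 3.21 FPKM, and 4 cells reached 5 FPKM.

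Etv1, an ETS-family transcription factor also called Er81 that marks part of the layer 5 neurons, was the most widely detected and the highest layer gene (chromosome 12, 38779380 to 38870484, plus strand). It was at 0 in 21 cells, had a median of 4.86 FPKM over all 59, and reached 163 FPKM in cell 60, 103 FPKM in cell 19 and 97.5 FPKM in cell 40. In 24 cells it was at 20 FPKM or more, a level that no more than 5 cells reached for any other member. Its 35 detected cells (59.3%, interval 45.7 to 71.9%) had a median of 32.7 FPKM. Of those calls 31 rested on at least 10 recovered fragments, and 2 on 1 or 2. Etv1 was the highest of the 9 genes in 26 cells (44.1%, interval 31.2 to 57.6%), against 8 cells for Tle4 and 6 for Rasgrf2.

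Fezf2, the zinc-finger factor that specifies layer 5 neurons projecting below the cortex, was found in far fewer cells (chromosome 14, 12342094 to 12348189, minus strand). Its 4 detected cells were cell 22 at 44.2 FPKM, cell 3 at 17.5, cell 32 at 8.98 and cell 8 at 4.61 FPKM, and it was at 0 in the other 55. These 4 values rested on 93, 13, 10 and 23 recovered fragments. The 2 layer 5 genes thus met in 1 cell, cell 8, which is 25% of the Fezf2 cells and 2.86% of the Etv1 cells.

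Among layer 6 genes, Tle4 was the most frequent. It encodes a Groucho-family corepressor of corticothalamic neurons (chromosome 19, 14448150 to 14598051, minus strand). It was at 0 in 29 cells, had a median of 0.146 FPKM over all cells, and reached 65.2 FPKM in cell 24, 38.8 FPKM in cell 32 and 25.2 FPKM in cell 15. The 22 detected cells had a median of 7.12 FPKM. In cells 19 and 20, with estimated depths of 61259 and 29043 fragments, the call rested on 1 fragment.

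Syt6 encodes a synaptotagmin, a family of membrane-trafficking proteins, and is used as a marker of corticothalamic layer 6 neurons (chromosome 3, 103575231 to 103645569, plus strand). It was at 0 in 40 cells and highest in cell 58 (55.8 FPKM), cell 23 (48.5 FPKM) and cell 45 (19.8 FPKM), with a median of 7.63 FPKM over its 12 detected cells. Its exons share 505 bases with those of Atg4a-ps on the other strand, a gene of protein-coding type in the annotation used. Atg4a-ps was detected in 1 cell, and in 0 of the 12 Syt6 cells.

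Nxph4 encodes a neurexophilin, a secreted ligand of neurexins, and marks layer 6b (chromosome 10, 127525473 to 127534559, minus strand). It was found in cell 51 at 46.8 FPKM, cell 24 at 22.8, cell 50 at 2.07 and cell 32 at 1.23 FPKM. The value of cell 32 was 1 fragment and that of cell 50 was 4. Nxph4 therefore had 2 cells with a level well above the threshold.

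**Figure D2:**
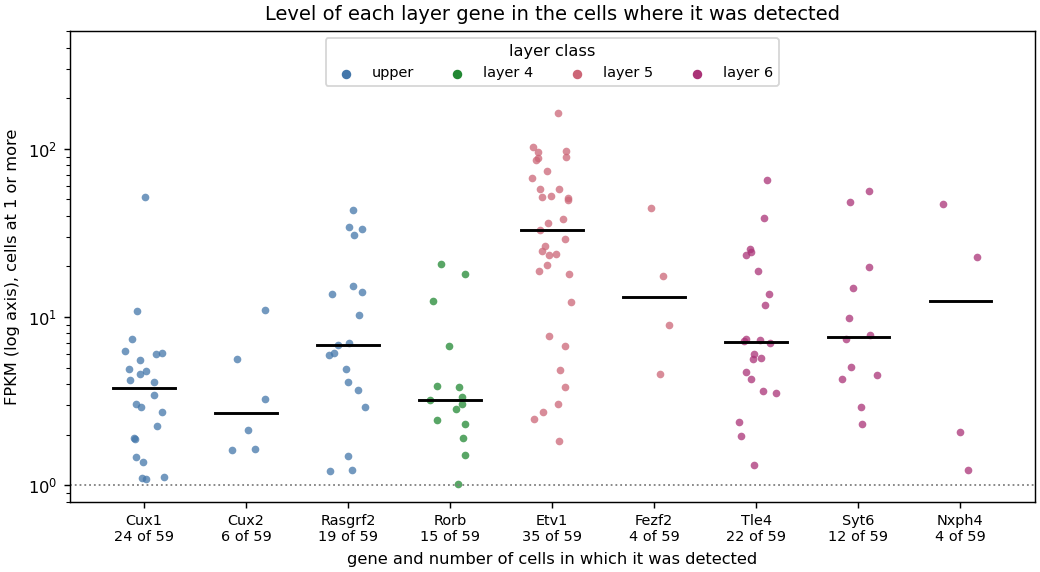
FPKM of each layer gene (log axis) in the cells where it was at 1 FPKM or more. Each point is a cell, colours give the layer class, black bars are medians over the detected cells and the dotted line is the detection threshold. Etv1 has the highest median, 32.7 FPKM, and Cux2 the lowest, 2.70 FPKM.

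Genes of different layers were found in the same cells, and pairs from 1 layer class overlapped about as much as pairs from different classes, with medians of 13.0% and 14.3%. The overlap of a pair is capped by its rarer gene, so these medians also depend on how widely each gene was detected. Cells were scored by the 4 classes named above. No class was detected in 7 cells, 1 class in 13, 2 classes in 16, 3 classes in 17 and all 4 in 6 cells. Among the 42 cells with 2 or more layer genes, 3 (7.14%, interval 1.5 to 19.5%) had them all in 1 class. Those were cell 2 with Cux1 at 51.6 and Rasgrf2 at 13.7 FPKM, cell 11 with Cux2 at 3.27 and Rasgrf2 at 43.1 FPKM, and cell 12 with Cux1 at 6.10 and Cux2 at 1.64 FPKM, all in the upper class. The most frequent combination was upper, layer 5 and layer 6 together, in 11 cells.

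Upper-side genes (upper class or Rorb) were detected in 40 of the 59 cells and deep-side genes (layer 5 or 6) in 46. A large overlap follows from these counts alone. Both sides were detected together in 34 cells (57.6%, interval 44.1 to 70.4%). Upper-side genes without deep ones were found in 6 cells and deep ones without upper-side ones in 12. Much of this overlap involved Etv1: without it, 25 cells (42.4%) had both sides. The overlap also depended on the FPKM threshold, and a higher one lowers detection by construction. At an FPKM of 5 or more it was 16.9% of cells, and cells with 1 class only were 45.8%, against 22.0% at an FPKM of 1. With at least 3 recovered fragments as the rule, the overlap was 62.7% and cells with 1 class only were 20.3%. In the cells with 2 or more members, 1 gene usually dominated: its share of the 9 genes' summed FPKM had a median of 70.4% (32.3 to 97.4%).

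Of the 36 gene pairs, 7 join genes of the same class and 29 join genes of different classes. The medians given above are the cells with both genes as a share of the cells with either. Pairs with Cux2, Fezf2 or Nxph4, found in 6, 4 and 4 cells, cannot reach a high share with a widely detected gene. The highest share among same-class pairs was 22.9%, for Cux1 with Rasgrf2 in 8 cells. Higher shares were reached by the different-class pairs Cux1 with Etv1 (17 cells, 40.5%) and Cux1 with Tle4 (13 cells, 39.4%). These join the most widely detected members, and their rho was 0.0156 and 0.115 after the number of genes detected was taken out. Syt6 and Nxph4, both layer 6 genes, were found together in 0 cells, as were Cux2 with Fezf2 and Cux2 with Nxph4. The rho between members had a median of 0.147 for same-class and 0.120 for different-class pairs, with both medians under 0 (-0.0820 and -0.00847) after the number of genes detected was taken out of the ranks.

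**Figure D3:**
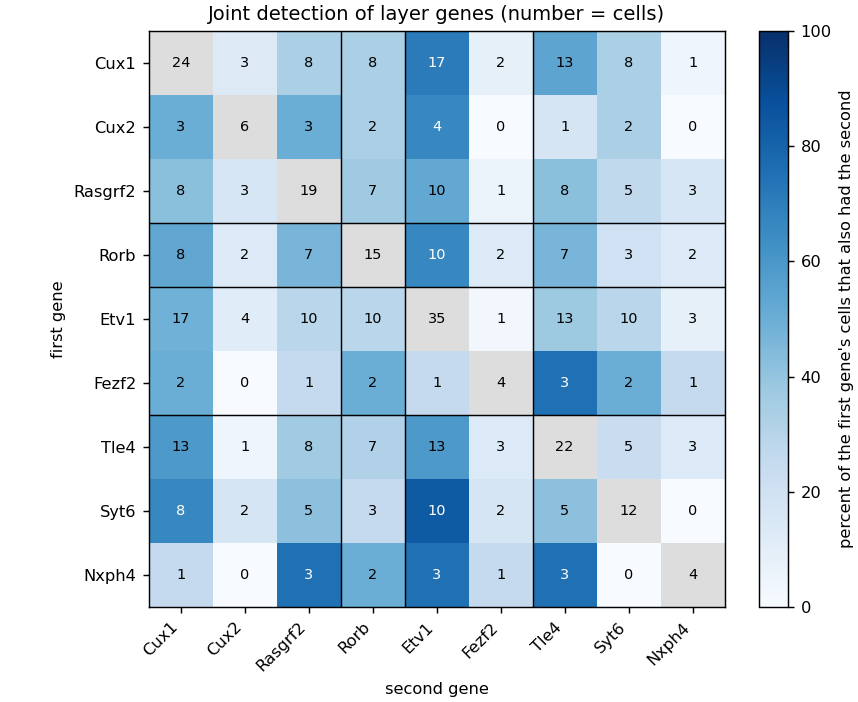
Joint detection of the 9 layer genes at an FPKM of 1 or more. Numbers are cells with both genes (cells with the gene on the grey diagonal), the colour is the percentage of the first gene's cells that also had the second, and black lines part the 4 layer classes. Outside the class boxes, 10 of the 12 Syt6 cells and 17 of the 24 Cux1 cells had Etv1, while inside them Tle4 and Syt6 shared 5 cells and Syt6 and Nxph4 shared 0.

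Slc17a7 was detected in 20 cells, and each of them had at least 1 layer gene. Layer genes were however found without it as well: of the 52 cells with a layer gene, 20 (38.5%, interval 25.3 to 53.0%) had Slc17a7. Among the 20 Slc17a7 cells, 15 had upper-side and deep-side genes together, 3 had upper-side genes only and 2 deep-side genes only. Upper-class genes were found in 80% of the Slc17a7 cells, against 62.7% of all 59 cells, and Rorb in 45%, against 25.4%. Layer 5 genes were found in 75%, against 64.4%, and layer 6 genes in 50%, against 50.8%. In the 42 cells with Ppp1r1b, described below, these shares were 76.2%, 35.7%, 73.8% and 61.9%, in the same order. The Slc17a7 cells had a median of 4703.5 genes detected, against 3984 over all cells.

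Rasgrf2, Rorb and Fezf2 had the highest correlations with Slc17a7, and those of Etv1, Cux1 and Nxph4 lay close to 0. Of the 19 Rasgrf2 cells, 11 had Slc17a7 (57.9%), and these were 55% of the Slc17a7 cells, where Rasgrf2 was found in 32.2% of all cells. Its rho with Slc17a7 was 0.555, and 0.533 after the number of genes detected was taken out. Rorb was found with Slc17a7 in 9 of its 15 cells, with a rho of 0.378. That rho was 0.616 in the 39 cells with at least 500000 fragments, 0.342 with the number of genes detected taken out, and 0.296 in the 46 cells with at least 2000 genes. All 4 Fezf2 cells had Slc17a7, at 147 FPKM in cell 32, 10.5 in cell 3, 5.59 in cell 22 and 1.73 FPKM in cell 8. The rho of Fezf2 with Slc17a7 was 0.358 over all cells and 0.224 in the 39 deeper ones, of which 2 had Fezf2. For Etv1 the rho was -0.0548, with 12 of 35 cells shared, and for Cux1 it was 0.0288, with 10 of 24 shared.

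A rho of at least 0.3 with Slc17a7 was reached by 3 of the 9 layer genes, and by 8.23% of the 8041 other genes detected in at least 12 cells. Fezf2, which is 1 of the 3, was below that number of cells, as were Cux2 and Nxph4, here and in the comparisons below. The median rho was 0.154 over the 9 members and 0.0960 over those 8041 genes. The cell with the highest Slc17a7, cell 32 at 147 FPKM, had Tle4 at 38.8, Rasgrf2 at 30.8, Fezf2 at 8.98 and Nxph4 at 1.23 FPKM, so members of the upper, layer 5 and layer 6 classes met there. The next highest were cell 14 at 29.2 FPKM, with Rasgrf2 at 5.98 and Rorb at 3.06 FPKM, and cell 54 at 27.8 FPKM, with Tle4 at 11.7 and Rorb at 3.86 FPKM.

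Ppp1r1b was detected in 42 cells, of which 41 had a layer gene. Rorb, Fezf2, Syt6 and Nxph4 were found in Ppp1r1b cells only, in 15 of 15, 4 of 4, 12 of 12 and 4 of 4 of their cells. Rasgrf2 was found with Ppp1r1b in 18 of 19 cells, Cux1 in 20 of 24, Cux2 in 5 of 6, Tle4 in 18 of 22 and Etv1 in 28 of 35 cells. Ppp1r1b itself was in 71.2% of all cells (interval 57.9 to 82.2%). The number of genes detected also differed. The 42 Ppp1r1b cells had a median of 4592 genes, and the 15 cells with neither Ppp1r1b nor Slc17a7 a median of 1859. Of those 15 cells, 9 had a layer gene.

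Syt6 followed the level of Ppp1r1b most closely of the 9 genes, with a rho of 0.510, and 0.391 after the number of genes detected was taken out. The cell with the highest Ppp1r1b, cell 58 at 1475 FPKM, also had the highest Syt6, 55.8 FPKM. The 3 next highest Ppp1r1b cells, cell 16 at 1035, cell 56 at 820 and cell 43 at 377 FPKM, had Syt6 at 9.90, 7.86 and 4.54 FPKM. Other cells broke this order. Cell 23 had Syt6 at 48.5 and Ppp1r1b at 87.7 FPKM, and cell 45 had 19.8 and 36.7 FPKM. Cell 49 had Syt6 at 0 with Ppp1r1b at 281 FPKM, and cell 39 had 0.717 with 209 FPKM. Rasgrf2 had a rho of 0.418 and Rorb of 0.346, while Etv1 had 0.0826, which was -0.117 with the number of genes detected taken out. A rho of at least 0.3 with Ppp1r1b was reached by 3 of the 9 members and by 27.3% of the 8041 genes, and the median over the members was 0.257 against 0.216 over those genes.

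Slc17a7 and Ppp1r1b were detected together in 18 cells, all of which had a layer gene and 14 of which had both sides. Slc17a7 without Ppp1r1b was found in 2 cells. Cell 1 had Rasgrf2 alone at 34.4 FPKM with 1554 genes detected, and cell 59 had Etv1 at 85.6 and Cux1 at 1.37 FPKM. Ppp1r1b without Slc17a7 was found in 24 cells, 23 of them with a layer gene.

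**Figure D4:**
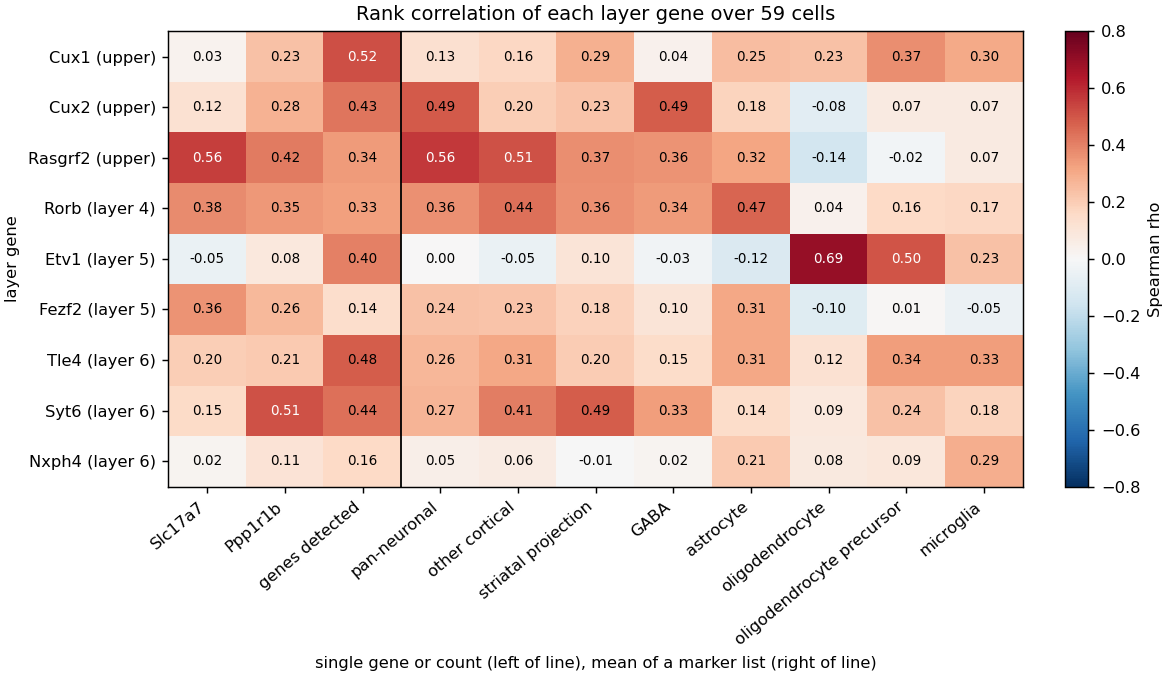
Spearman rho over 59 cells of each layer gene (rows) with Slc17a7, Ppp1r1b and the number of genes detected (left of the line), and with the mean log2(FPKM + 1) of marker lists (right of the line). The highest value is Etv1 with the oligodendrocyte list (0.69), and Rasgrf2 has the highest values in the Slc17a7 and pan-neuronal columns.

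Set against lists of cell type markers, members of the same layer class differed: Etv1 had a rho of 0.694 with the oligodendrocyte list and Fezf2, the other layer 5 gene, a rho of -0.0957. The value of Etv1 is over the 59 cells (0.674 after the number of genes detected was taken out, and 0.639 in the 39 deeper cells). The median over the 8042 genes was 0.0868, and 14% of them reached 0.3, as 1 of the 9 members did. Each of the 10 oligodendrocyte genes had a rho with Etv1 of 0.405 (Opalin) or more, up to 0.726 for Mag, the myelin-associated glycoprotein gene. Mag was detected in 29 of the 35 Etv1 cells, and all 35 had the myelin genes Mbp and Mobp, which were found in 55 and 54 of the 59 cells. At least 5 of the 10 genes were detected in 33 of the 35 Etv1 cells, among 46 such cells in all. This count is not particular to Etv1: it was 14 of 15 for Rorb and 22 of 24 for Cux1. Over the other members it ran from 15 of the 19 Rasgrf2 cells to all 4 Fezf2 and all 4 Nxph4 cells. At least 11 of the 21 pan-neuronal genes were detected in 30 of the 35 Etv1 cells.

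The 5 cells with the highest Etv1, from 89.3 to 163 FPKM, were cells 60, 19, 40, 10 and 4. Their mean log2(FPKM + 1) was 9.01 to 10.7 for the oligodendrocyte list, where the median cell had 6.49, and 1.26 to 3.24 for the pan-neuronal list, where the median cell had 4.21. Slc17a7 was at 0 in all 5. Cell 61 was an exception, with Etv1 at 74.1 FPKM, an oligodendrocyte mean of 1.56 and a pan-neuronal mean of 5.79. Cell 13 was another, with Etv1 at 52.2 FPKM and an oligodendrocyte mean of 2.49. The reverse was found in cells 41, 1, 53 and 34, with Etv1 at 0 and oligodendrocyte means of 7.86, 7.66, 7.38 and 6.71. With the pan-neuronal list the rho of Etv1 was 0.000777, against a median of 0.316 over all genes tested. The part of oligodendrocyte RNA in the Etv1 values was not tested.

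**Figure D5:**
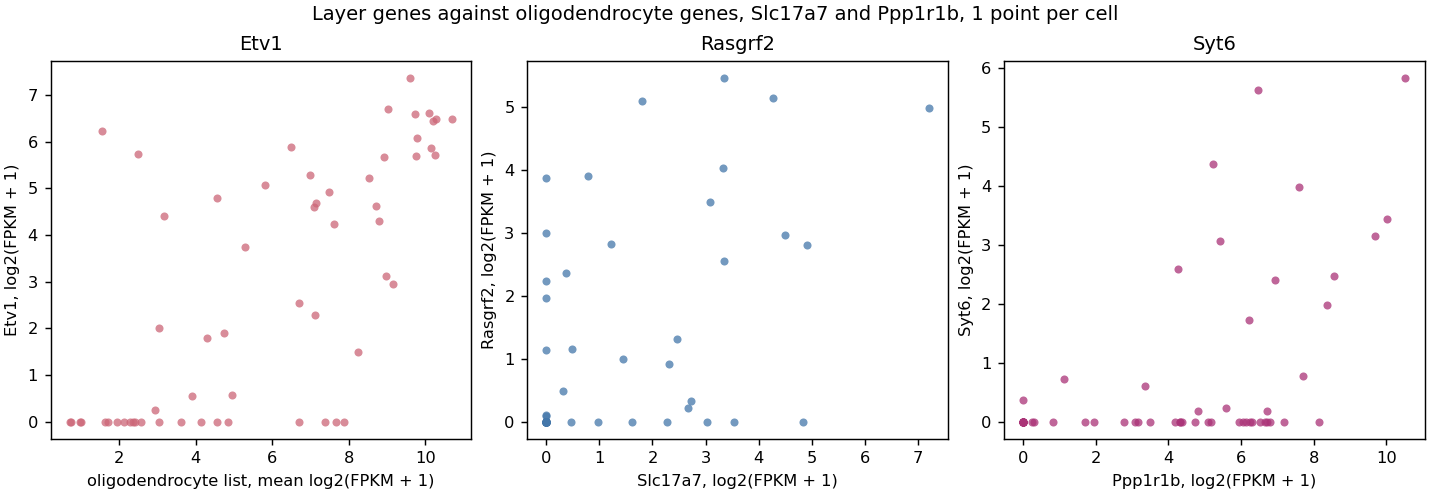
Etv1 against the mean of 10 oligodendrocyte genes, Rasgrf2 against Slc17a7 and Syt6 against Ppp1r1b, all as log2(FPKM + 1), with 1 point per cell. Etv1 rises with the oligodendrocyte mean apart from a few cells at the upper left (cells 61 and 13) and others at the lower right. The latter include cells 41, 1, 53 and 34, with Etv1 at 0. At 1 FPKM or more, 11 of the 20 Slc17a7 cells have Rasgrf2 and 12 of the 42 Ppp1r1b cells have Syt6.

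Rasgrf2 and Cux2 had the highest correlations with the neuronal genes among the 9 members. Rasgrf2 had a rho of 0.565 with the pan-neuronal list (0.480 with the number of genes detected taken out) and of -0.144 with the oligodendrocyte list. Each of its 19 cells had at least 11 of the 21 pan-neuronal genes, as 47 cells did in all. The same was true of every Cux2, Rorb, Fezf2 and Nxph4 cell, so this count does not set Rasgrf2 apart. Cux2 had a rho of 0.492 with the pan-neuronal list and of 0.485 with the GABA genes Gad1, Gad2 and Slc32a1, but with 6 detected cells this rests on few values. A rho of at least 0.3 with the pan-neuronal list was reached by 3 of the 9 members, Rasgrf2, Cux2 and Rorb, and by 53.7% of the genes tested. The members thus did not reach it more often than other genes. The genes tested were detected in at least 12 cells, and Cux2, Fezf2 and Nxph4 in fewer.

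Rorb followed the astrocyte list, with a rho of 0.468 (0.376 with the number of genes detected taken out), against a median of 0.221. A value of at least 0.3 was reached by 4 of the 9 members (Rorb, Rasgrf2, Tle4 and Fezf2) and by 28% of the genes tested. Fezf2 was detected in fewer cells than the 12 asked of those genes. At least 6 of the 12 astrocyte genes were detected in 13 of the 15 Rorb cells, among 22 such cells in all. All 15 Rorb cells also had at least 11 of the 21 pan-neuronal genes. The highest single values were with Fgfr3 (0.50) and Gja1 (0.496), and Gfap, the astrocyte filament gene, had the lowest (0.133). Cell 47, with the highest Rorb, had the highest astrocyte mean of all cells, 7.93, beside a pan-neuronal mean of 4.98. Each of the 4 Fezf2 cells also had at least 6 of the 12 genes. The part of astrocyte RNA in the Rorb and Fezf2 values was not tested. Tle4 had a rho of 0.336 with the oligodendrocyte precursor list and of 0.332 with the microglia list, which were 0.125 and 0.133 with the number of genes detected taken out. Cux1 had 0.372 and 0.304 with these lists, and 0.153 and 0.0763 with it taken out. The highest rho of the 9 members with the precursor list was that of Etv1, 0.502, and 0.379 with the number of genes detected taken out. The medians over all genes tested were 0.220 for the precursor and 0.202 for the microglia list. Cell 15, with Tle4 at 25.2 FPKM, had the highest microglia mean of all cells, 9.83. The part of glial RNA in the Tle4 and Cux1 values was not tested. Syt6 had its highest value with the list of striatal projection neuron genes, 0.487, against a median of 0.247. That list includes Ppp1r1b, so this value is not independent of the rho of Syt6 with Ppp1r1b. Nxph4 had none above 0.3 with any of the lists shown in the plot of rank correlations.

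A list of 24 other genes of cortical projection neurons, of which 23 were measured, was detected as thinly as the layer genes. Its median member was found in 22.0% of cells. The 4 highest were Pcp4, a calmodulin-binding protein gene, in 52 cells, Bcl11b, a transcription factor of layer 5 and of striatal projection neurons, in 31, the calbindin gene Calb1 in 30, and Lamp5 in 23 beside Pou3f1, also in 23. The 4 lowest were Scnn1a in 2 cells, Emx1, a factor of the cortical progenitor zone, in 3, and Ntsr1 and Rspo1 in 4 each. Tbr1, which specifies layer 6 neurons, was detected in 18 cells and is named here after its values were seen. Every Tbr1 cell had Ppp1r1b and a layer gene, and 10 of the 18 had Slc17a7. The median rho of the 23 genes with Slc17a7 was 0.251, and 16 of them lay above the layer genes' median of 0.154. With Ppp1r1b the median of the 23 was 0.241, beside 0.257 for the layer genes. Over the 8041 genes the medians were 0.0960 with Slc17a7 and 0.216 with Ppp1r1b. The mean of the 23 genes had a rho of 0.454 with Slc17a7 and of 0.717 with Ppp1r1b. Bcl11b and Foxp2 are however also on the list of striatal projection neuron genes, with a rho of 0.672 and 0.609 with Ppp1r1b. The value of 0.717 is therefore not one of cortical genes alone. With the mean of the 23 genes, Rasgrf2, Rorb, Syt6 and Tle4 had a rho of 0.509, 0.440, 0.407 and 0.308, and Etv1 had -0.0510. With the number of genes detected taken out, the first 4 were 0.432, 0.357, 0.279 and 0.140. A rho of at least 0.3 was reached by 29.8% of the genes tested, whose median was 0.211.

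For members detected in at least 12 cells, the genes of the most similar pattern were ranked by rho over the 59 cells among 8020 genes, mitochondrial ones left out. Etv1 was most like Edil3 (0.762), Sept8 (0.753) and Mag (0.726). Cux1 was most like Ergic3 (0.715), Luc7l (0.663) and Fkbp4 (0.625), and Rasgrf2 like Necab3 (0.663), Sptan1 (0.661) and Ak5 (0.653). Rorb was nearest to Prdx6 (0.594), Sfxn5 (0.562) and Eci1 (0.560), Tle4 to Aldh2 and Anxa6 (both 0.635) and Gnb2l1 (0.602), and Syt6 to Polr1c (0.661), Neto1 (0.614) and Galnt13 (0.608). No layer gene was among the 3 nearest of another. Few of the 8020 genes were layer genes, and Cux2, Fezf2 and Nxph4 were below the limit of 12 cells. That absence therefore says little about layer agreement. The values listed are the highest of 8020 each and describe these cells only.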

How the data were processed

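The authors deposited 1 table of FPKM with 1 column per cell, and the submitters' processing notes name STAR 2.5.3a, featureCounts 1.5.3 and GRCm38. The sources used here do not give the annotation release, the strandedness or the treatment of multi-mapping reads. The table holds 20740 rows, 51 of them ERCC spike-ins, which were left out. The 9 genes and all marker lists were chosen with earlier results of these data known, and the rule for named genes took all 9, Slc17a7, Ppp1r1b, the 4 highest and 4 lowest of the other cortical genes, and the 3 genes most like each member.

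Depth was estimated from the spacing of FPKM times exon length (GENCODE M21, 19358 genes, 93.6%). A median of 73.4% of low values came out whole within 0.02 fragments, so no count model was used. For the members, Slc17a7 and Ppp1r1b, the length was adjusted per gene until fragments were whole, which 106 of 106 low values then were within 0.03. Lists were summarised as mean log2(FPKM + 1). Correlations are Spearman's over cells, computed with scipy 1.17.1 and without p-values, and the number of genes detected was taken out by residualising ranks. Alternatives were detection at any FPKM above 0, at 5 or at 3 recovered fragments, rescaled cells, cells with at least 2000 genes or 500000 fragments, and pseudocounts of 0.1 and 10. Scripts were tested on simulated data. Values of some single list genes are not reported here.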

Additional observations from a re-analysis of the deposited data

How the results depend on the processing

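Of 388 values under alternatives, 356 stayed within the spread of the main value, 30 moved by more, and 2 were correlations of at least 0.2 that changed sign. Of the 388, 160 were rho values with marker lists, mostly under another pseudocount, which changes ranks little, and 159 of them stayed. Of the 53 shares of cells, 42 stayed and 11 moved. As spread, shares had their 95% interval and rho values the SD over genes. With any FPKM above 0, cells with at least 3 layer genes were 61.0% and cells with Cux1 and Etv1 45.8%. At an FPKM of 5 these were 16.9% and 5.08%, cells with upper and deep genes 16.9%, cells with 1 class only 45.8%, and cells with Slc17a7 and a layer gene 22.0%. Raising or lowering the threshold shifts detection by construction. Among the 46 cells that had 2000 genes or more, a filter that selects on detection, cells with a layer gene were 100%, with upper and deep genes 71.7%, and with Ppp1r1b and a layer gene 82.6%. Without Etv1, upper and deep genes met in 42.4%. Of 260 rho values under alternatives, 18 changed sign, 16 of them from a rho under 0.2 in size. The other 2 were with Ppp1r1b, for Cux1 in those 46 cells (-0.0537) and for Tle4 with the number of genes detected taken out (-0.00818). Among the 16, the rho of Etv1 with Ppp1r1b was -0.258 in those 46 cells and -0.117 with the number of genes detected taken out, and that of Nxph4 in the 39 deeper cells was -0.162 with Slc17a7 and -0.0134 with Ppp1r1b. The rho of Cux1 with Slc17a7 was -0.0647 and -0.0789 under the alternatives named for Etv1. The cause was not tested. Leaving out each cell in turn, which was added after the values were seen, gave 0.528 to 0.600 for Rasgrf2 with Slc17a7, 0.282 to 0.374 for Fezf2 with Slc17a7, and 0.680 to 0.752 for Etv1 with the oligodendrocyte list. Depth limits the rare genes: 1 fragment can call Nxph4 or Tle4. No paired analysis was possible because there is 1 group.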
